A study of Homo sapiens with 10 samples.

Results

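The S100 proteins are small calcium sensors of vertebrate cells. Each chain carries a pair of EF-hand calcium-binding loops, and most members work as dimers that open a binding face for partner proteins when calcium enters the cell. They are named in this tissue for roles in the growth, motility and invasion of carcinoma cells, and several are also released and act on receptors of neighbouring cells. Described here were 9 S100 genes, S100A2, S100A3, S100A4, S100A6, S100A11, S100A13, S100A14, S100A16 and S100P, out of 58050 genes of the expression table. They were chosen by family and picked from the expression values of the comparison described below, so their levels and differences between the groups are given as a description and without a test of their own. Of the 9 genes 8 reached a mean of 1 TPM (transcripts per 1000000, a level per transcript length) over all libraries and entered the comparison of 13581 genes. S100P did not.

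The libraries came from HCT116, a line of human colon cancer cells grown in McCoy's 5A medium with FCS. They covered 5 HCT116-WT cultures and 5 HCT116-CD276KO cultures, in which CD276, a surface protein of the B7 family, had been targeted with Cas9 and a guide RNA. All HCT116-CD276KO cultures descend from 1 single cell clone, so that the clone and the loss of CD276 cannot be told apart, and the error given with each value is that of repeated cultures, with no other clone to compare. The labels do not say whether the HCT116-WT cultures had received the scrambled guide. CD276 itself stood at 45.3 ± 6.17 TPM (SD, n = 5) in HCT116-WT cells and 5.46 ± 1.21 TPM (SD, n = 5) in HCT116-CD276KO cells (log2 fold change -2.85, adjusted p-value 1.39e-07 by limma).

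The cells carried epithelial markers in both groups, with a summed level of EPCAM, KRT8, KRT18, KRT19, CDH1 and VIL1 between 4172.58 and 4941.93 TPM in HCT116-WT libraries and between 3306.28 and 3773.27 TPM in HCT116-CD276KO libraries. This sum was lower in HCT116-CD276KO cells, and VIL1, a microvillus protein, did not exceed 0.05 TPM in any library. The keratins carried most of the sum. Means in HCT116-WT and HCT116-CD276KO cells were 2082 and 1553 TPM for KRT8, 821 and 625 for KRT18 and 1267 and 1034 for KRT19. They were 260 and 202 TPM for EPCAM and 42.7 and 20.4 TPM for CDH1. CDH1 lay between 34.59 and 47.90 TPM and between 14.31 and 29.20 TPM in the respective groups, without overlap. Of 13 markers of leukocytes, endothelium and fibroblasts 11 stayed under 1 TPM in every library, and the others were CD68, at most 14.75 TPM, and COL1A1, at most 8.84 TPM. The summed leukocyte markers lay between 9.16 and 15.04 TPM and between 6.15 and 12.98 TPM in the respective groups, the fibroblast markers between 5.87 and 8.87 TPM and between 4.54 and 7.44 TPM, and the endothelial markers under 0.6 TPM in both, with LUM at 0 in all libraries. Their part in the S100 values was not tested. In such bulk samples fewer cells that express a gene and less RNA per cell cannot be told apart.

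By GENCODE 44 on hg38, 8 of the 9 genes lie on the minus strand of chromosome 1 and S100P lies on the plus strand of chromosome 4, from 6693878 to 6697170. S100A11 spans 152032506 to 152047907 and is 1.49 Mb away from the other 7, which sit between 153534599 and 153631360 in the order S100A6, S100A4, S100A3, S100A2, S100A16, S100A14 and S100A13. S100A14, from 153614255 to 153616986, is 1109 bases from the end of S100A16 and 1800 bases from S100A13. The annotated span of S100A4 holds the whole of S100A3 on the same strand, so that reads could be split between these genes, and the level of S100A3 is uncertain for this reason. S100A13 overlaps S100A1 on the opposite strand. A strand-specific library keeps such genes apart where reads are assigned by strand, a setting that the sources used here do not give. S100A13 also overlaps the long non-coding RNA gene ENSG00000271853 on its own strand, at 0.87 to 2.60 TPM, and reads of these genes could be split between them. For S100A11 the table lists 8 pseudogenes, none above 0.13 TPM, and how reads shared with them were divided is not known from the TPM values.

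The genes share a compact build. The canonical transcripts run from 434 bases in S100A6 to 1172 bases in S100A16, against a median of 2913 bases over the 13472 tested genes with a length, and they encode between 89 residues in S100A6 and 104 in S100A11. S100P has 2 exons, S100A14 has 4 and each of the others 3. Coding sequence lies in 3 exons of S100A11 and S100A14 and in 2 exons of each of the other genes.

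The 250 bases ahead of the RefSeq transcript start are shown for the 3 genes that passed the adjusted p-value threshold between the groups, S100A14, S100A11 and S100A4, since these are the genes the comparison turns on. They are given 5′ to 3′ on the minus strand of chromosome 1 (GRCh38.p14), at chr1:153616326-153616575, chr1:152037005-152037254 and chr1:153545807-153546056. All 3 windows lie within the GENCODE spans of their genes, where longer transcripts start further upstream, and a short stretch of the S100A14 window is exonic in such a transcript. Capitals mark matches to any of the motifs searched.
S100A14: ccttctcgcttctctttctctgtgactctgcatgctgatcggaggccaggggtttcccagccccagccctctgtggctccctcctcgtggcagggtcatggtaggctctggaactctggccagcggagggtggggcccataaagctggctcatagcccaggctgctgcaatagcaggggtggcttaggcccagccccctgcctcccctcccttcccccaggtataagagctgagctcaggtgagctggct
S100A11: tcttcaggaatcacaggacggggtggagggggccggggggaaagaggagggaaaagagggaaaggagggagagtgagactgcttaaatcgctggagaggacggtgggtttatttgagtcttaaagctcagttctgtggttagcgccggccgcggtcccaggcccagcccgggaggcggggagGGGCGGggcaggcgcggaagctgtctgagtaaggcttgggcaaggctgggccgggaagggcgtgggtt
S100A4: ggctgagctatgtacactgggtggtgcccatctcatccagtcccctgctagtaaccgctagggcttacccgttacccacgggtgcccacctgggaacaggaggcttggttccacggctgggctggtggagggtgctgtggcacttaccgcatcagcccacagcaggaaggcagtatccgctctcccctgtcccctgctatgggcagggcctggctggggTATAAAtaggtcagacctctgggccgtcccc

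The motifs were searched on both strands in windows of the same length, 13 for the 9 S100 genes, since some have more than 1 start, and 35116 for all genes. The TATA box letters TATAAA began 31 bases before the start of S100A4 and were also found for S100P and 1 start of S100A13, and 10.7% of all windows held them. The GC box letters GGGCGG, present in 42.6% of all windows, were found at S100A11, beginning 68 bases before its start, and in windows of S100A3, S100A6, S100A13 and S100A16. The AP-1 letters TGANTCA were found at S100A2 and S100A3 and in 6.57% of all windows. The KLF letters CCACACCC were found at S100P alone among the S100 genes and in 2.97% of all windows, and the grainyhead letters AACCNGTT at none of them and in 1.49% of all windows. The S100A14 window held none of the 5 motifs as spelled here, and other spellings of them were not searched. In the windows printed no matches overlapped, while at S100A6 some of the 3 GC boxes did.

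In HCT116-WT cells the S100 mRNAs fell into a wide order of levels. S100A6, or calcyclin, a protein of proliferating cells, was the most abundant at 892 ± 124 TPM (SD, n = 5) and ranked 168 among all genes of the table. S100A11 at 221 ± 10.6 TPM and S100A16 at 218 ± 12.3 TPM came next, and their values overlapped. S100A14 at 163 ± 11.4 TPM and S100A4 at 159 ± 10.5 TPM overlapped as well. S100A13 followed at 101 ± 5.4 TPM, and S100A2 at 13.9 ± 0.873 TPM and S100A3 at 4.55 ± 0.796 TPM were far lower (SD, n = 5 for each). S100P, a family member first found in placenta and known to bind ezrin, was between 0 and 0.26 TPM. In HCT116-CD276KO cells the order differed in the middle: S100A16 at 233 ± 13.5 TPM and S100A4 at 227 ± 14.3 TPM now overlapped in the places behind S100A6, S100A11 was at 157 ± 6.28 TPM, and S100A14 had moved behind S100A13 to 44.1 ± 1.67 TPM (SD, n = 5 for each). S100A6 stayed first at 1057 ± 82 TPM (SD, n = 5).

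**Figure D1:**
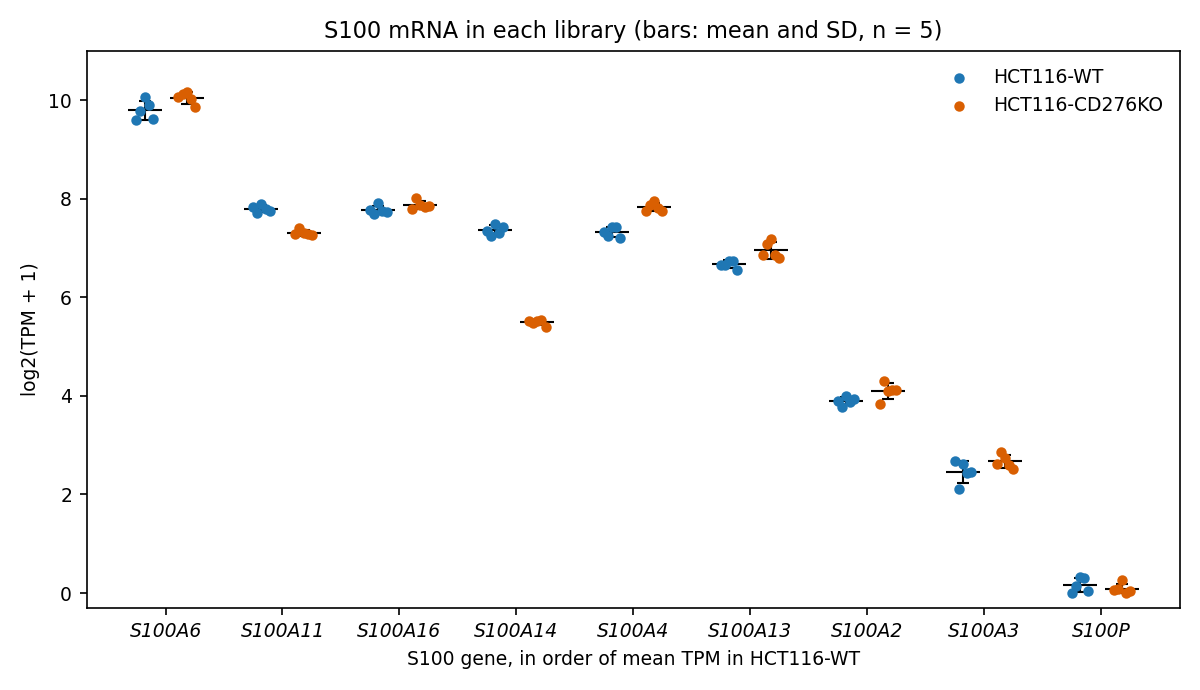
Level of each S100 mRNA as log2(TPM + 1), with 1 point for each of 5 HCT116-WT (blue) and 5 HCT116-CD276KO (orange) libraries, and bars for the mean and SD on that scale. S100A14 and S100A11 lie lower in HCT116-CD276KO libraries without overlap, S100A4 and S100A13 higher without overlap, and S100P lies near 0 in both groups.

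The question of the comparison was which transcripts differ in the tumor cells once CD276 is lost. By limma on log2(TPM + 1), 2 of the 8 S100 genes tested were lower at an adjusted p-value under 0.05, S100A14 and S100A11, where 4.09% of all 13581 genes tested were called lower, and 1 was higher, S100A4, where 0.781% were called higher. With a change of at least 2-fold asked for as well, S100A14 was the 1 gene called lower, against 0.464% of all genes, and 0 S100 genes were called higher, against 0.0221%. The values of the groups did not overlap for S100A14 and S100A11 on the lower side, a state found in 6.19% of all genes, and for S100A4 and S100A13 on the higher side, found in 1.42%. As the genes were picked from this contrast, nothing is read from these counts. Of the 8 genes 6 had a log2 fold change above 0, against 31.9% of all genes tested, and the median was 0.20 against -0.09 over all genes. The S100 transcripts are short, as only 17.2% of genes tested with a length are shorter than the longest of them. The share above 0 among genes of like length was not examined, so this is not read as a trait of the family either.

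S100A14 is a mostly epithelial member of the family whose second EF-hand loop binds calcium poorly. Its HCT116-WT values, from replicate 1 to 5, were 160.39, 150.79, 178.96, 155.86 and 170.40 TPM. Its HCT116-CD276KO values, in the same order, were 45.13, 43.72, 44.85, 45.39 and 41.31 TPM. The lowest HCT116-WT library was far above the highest HCT116-CD276KO library, and the HCT116-CD276KO libraries were close to each other. The mean was 27% of the HCT116-WT mean, and the log2 fold change was -1.86 (standard error 0.06). It was between -1.89 and -1.77 under every alternative run. S100A14 is also among the adhesion and migration genes that the study picked from these same libraries, which is no independent evidence of its direction.

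S100A11, or calgizzarin, binds annexin A1 and takes part in the repair of the plasma membrane. The HCT116-WT libraries held 227.25, 209.05, 235.42, 221.03 and 213.34 TPM of S100A11. The HCT116-CD276KO libraries, also from replicate 1 to 5, held 155.75, 168.27, 156.38, 154.39 and 152.21 TPM. All HCT116-CD276KO libraries were below all HCT116-WT libraries, with replicate 2 the highest of its group. The HCT116-CD276KO mean was 71.2% of the HCT116-WT mean, a log2 fold change of -0.49 (standard error 0.05), less than 2-fold.

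S100A4, or metastasin, binds the heavy chain of non-muscle myosin and is known as a gene of motile and mesenchymal cells. HCT116-WT cells gave 158.70, 151.10, 169.85, 169.69 and 146.99 TPM of S100A4 in replicate order. HCT116-CD276KO cells gave 214.11, 234.05, 248.09, 222.07 and 215.52 TPM. Here every HCT116-CD276KO library was above every HCT116-WT library, and the mean was 142% of that of HCT116-WT. The log2 fold change was 0.51 (standard error 0.06). The ratio of S100A4 to S100A11 TPM within a library was between 0.689 and 0.768 in HCT116-WT libraries and between 1.37 and 1.59 in HCT116-CD276KO libraries.

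S100A13, which helps export fibroblast growth factor 1 from cells by a route outside the secretory pathway, had HCT116-WT values of 100.08, 100.09, 105.64, 106.18 and 92.83 TPM. The HCT116-CD276KO values were 115.12, 133.40, 143.71, 114.34 and 109.44 TPM. The groups did not overlap, but the HCT116-CD276KO libraries were widely spread and the gene was not past the adjusted p-value threshold, with a log2 fold change of 0.28 (standard error 0.08). S100A6 ranged from 777.63 to 1071.80 TPM, median 871.03, in HCT116-WT libraries and from 931.37 to 1144.31 TPM, median 1060.81, in HCT116-CD276KO libraries, with a log2 fold change of 0.25 (standard error 0.09). Its groups overlapped, as HCT116-WT replicate 3 was higher than 3 of the HCT116-CD276KO libraries. Without that library S100A6 passed the adjusted p-value threshold, with a log2 fold change of 0.32, where 3.98% of all genes were called lower and 0.906% higher.

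The other 4 genes showed no call. S100A16, a widely expressed member that lies next to S100A14, had HCT116-WT values of 218.19, 206.64, 238.59, 213.67 and 212.36 TPM. Its HCT116-CD276KO values were 220.49, 255.77, 233.43, 226.37 and 230.52 TPM. These ranges overlapped, with a log2 fold change of 0.10 (standard error 0.06). S100A2, known from the nuclei of epithelial cells, ranged from 12.66 to 14.99 TPM and from 13.29 to 18.80 TPM in the respective groups (log2 fold change 0.20, standard error 0.09). S100A3, a protein of the hair cuticle, ranged from 3.32 to 5.37 TPM and from 4.75 to 6.26 TPM (log2 fold change 0.21, standard error 0.12). S100P was listed at 0.00, 0.10, 0.26, 0.23 and 0.03 TPM in the HCT116-WT libraries and at 0.05, 0.06, 0.20, 0.00 and 0.03 TPM in the HCT116-CD276KO libraries, levels too low for a comparison.

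**Figure D2:**
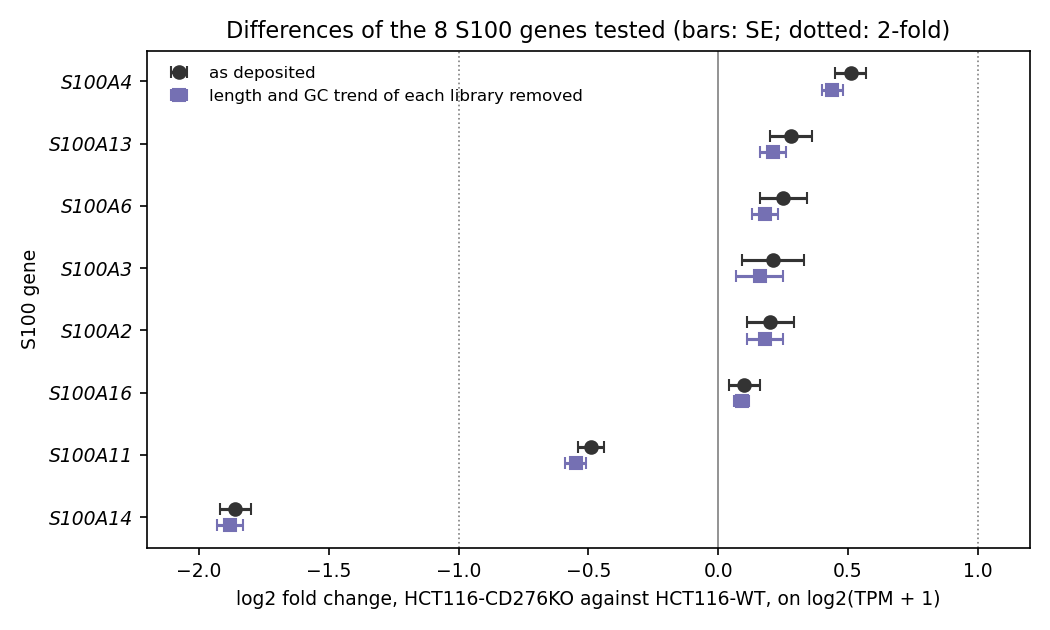
Log2 fold change of HCT116-CD276KO against HCT116-WT cells on log2(TPM + 1) for the 8 S100 genes tested, with bars for the standard error, as deposited (circles) and after the length and GC trend of each library was removed (squares). S100A14 is the 1 gene past the dotted 2-fold line, at -1.86 and -1.88, and the genes above 0 shift slightly to lower values after the correction.

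The relation of expression values to transcript length was not the same in all libraries. Over genes, each library's deviations were correlated with transcript length, and the Spearman coefficient was between -0.09 and 0.43 in HCT116-WT libraries and between -0.52 and 0.32 in HCT116-CD276KO libraries, with the lowest values in HCT116-CD276KO replicates 2 and 3 at -0.52 and -0.49. S100A4, S100A13 and S100A6 were highest in the same libraries, and the part of transcript length in their levels there was not tested. With the trend of each library with length and GC content removed, the log2 fold changes were 0.44 for S100A4, 0.21 for S100A13, 0.18 for S100A6, -0.55 for S100A11 and -1.88 for S100A14. The standard errors then were smaller, between 0.04 and 0.05 for these genes, and 5 S100 genes were called, S100A6 and S100A13 in addition to the 3 named above. In that fit 5.62% of all genes were called lower and 3.93% higher, against 4.09% and 0.781% as deposited, so that higher calls were more frequent over all genes as well.

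The shares of the genes within the family differed between the groups. The summed level of the 9 genes was 1773 ± 159 TPM (SD, n = 5) in HCT116-WT cells and 1864 ± 120 TPM (SD, n = 5) in HCT116-CD276KO cells, and the ranges of these sums overlapped. S100A14 made up 9.25 ± 0.774% of the sum in HCT116-WT cells and 2.37 ± 0.128% in HCT116-CD276KO cells, and S100A11 12.5 ± 0.815% and 8.46 ± 0.393% (SD, n = 5). The share of S100A6 was 50.1 ± 2.68% and 56.7 ± 1.24%, and that of S100A4 9 ± 0.427% and 12.2 ± 0.4% (SD, n = 5). The share of S100A16 was nearly the same at 12.3 ± 0.681% and 12.5 ± 0.73% (SD, n = 5). As shares of 1 sum these values depend on each other.

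**Figure D3:**
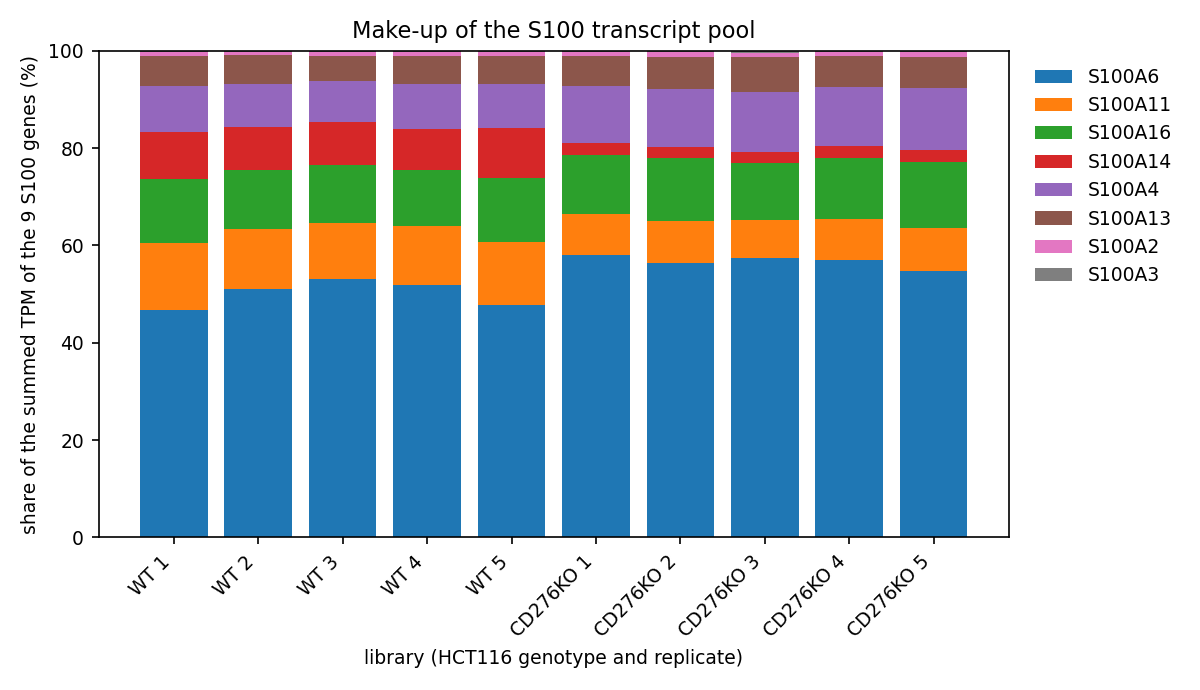
Share of each S100 gene in the summed TPM of the 9 genes, in percent, with 1 stacked bar for each of the 10 libraries (S100P, under 0.02% in all, is not drawn). The red segment of S100A14 is between 8.48% and 10.4% in HCT116-WT libraries and between 2.22% and 2.49% in HCT116-CD276KO libraries.

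S100A14 stood apart from the genes at its sides. In each library its level was set against that of S100A16, the gene 1109 bases away, and the ratio was between 0.729 and 0.802 in HCT116-WT libraries and between 0.171 and 0.205 in HCT116-CD276KO libraries. Against S100A13, on its other side, the ratio was between 1.47 and 1.84 and between 0.312 and 0.397. The other 6 S100 genes of the described set that lie in the cluster had log2 fold changes between 0.10 and 0.51. Further S100 genes are treated below. Of the genes outside the S100 family within 500 kb of the cluster 14 were tested. Of these 10 had a log2 fold change above 0 and 4 below, from -0.31 to 0.35, with CREB3L4 at 0.00. Of the 14 genes 3 were higher at an adjusted p-value under 0.05 from limma, where 0.781% of all genes tested were called higher. Called lower were 0 of the 14, against 4.09% of all genes. An unadjusted p-value under 0.05 was found for 7, and for 21.9% of all genes tested. RPS27, a protein of the small ribosomal subunit, was at 1464 ± 27.8 and 1794 ± 121 TPM (SD, n = 5), with log2 fold change 0.29 and adjusted p-value 0.0095. Processed copies of RPS27 elsewhere in the genome could take part of its reads, which makes its level uncertain. RAB13, a small GTPase of vesicle traffic to tight junctions, was at 89.8 ± 2.19 and 106 ± 3.15 TPM, with log2 fold change 0.23 and adjusted p-value 0.0204, and SNAPIN, a SNARE-associated protein, at 33.2 ± 3.03 and 42.4 ± 2.75 TPM, with log2 fold change 0.35 and adjusted p-value 0.0241 (SD, n = 5 for both). Their canonical transcripts have 352, 1164 and 1003 bases, so they are short as well. With the length and GC trends removed all 3 were still called, at log2 fold changes of 0.22 for RPS27, 0.23 for RAB13 and 0.33 for SNAPIN. With a replicate block 0 of the 14 were called. RAB13 and SNAPIN were also not called without HCT116-WT replicate 1, 2 or 5, or without HCT116-CD276KO replicate 4. SNAPIN was not called without HCT116-CD276KO replicate 2 or 3 either. CHTOP, the nearest tested gene above the cluster outside its span, was at 94.4 ± 4.16 and 95.7 ± 2.63 TPM (SD, n = 5, log2 fold change 0.02), and no gene was tested within 500 kb below. DENND4B was the lowest of the 14 at -0.31 (adjusted p-value 0.122).

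**Figure D4:**
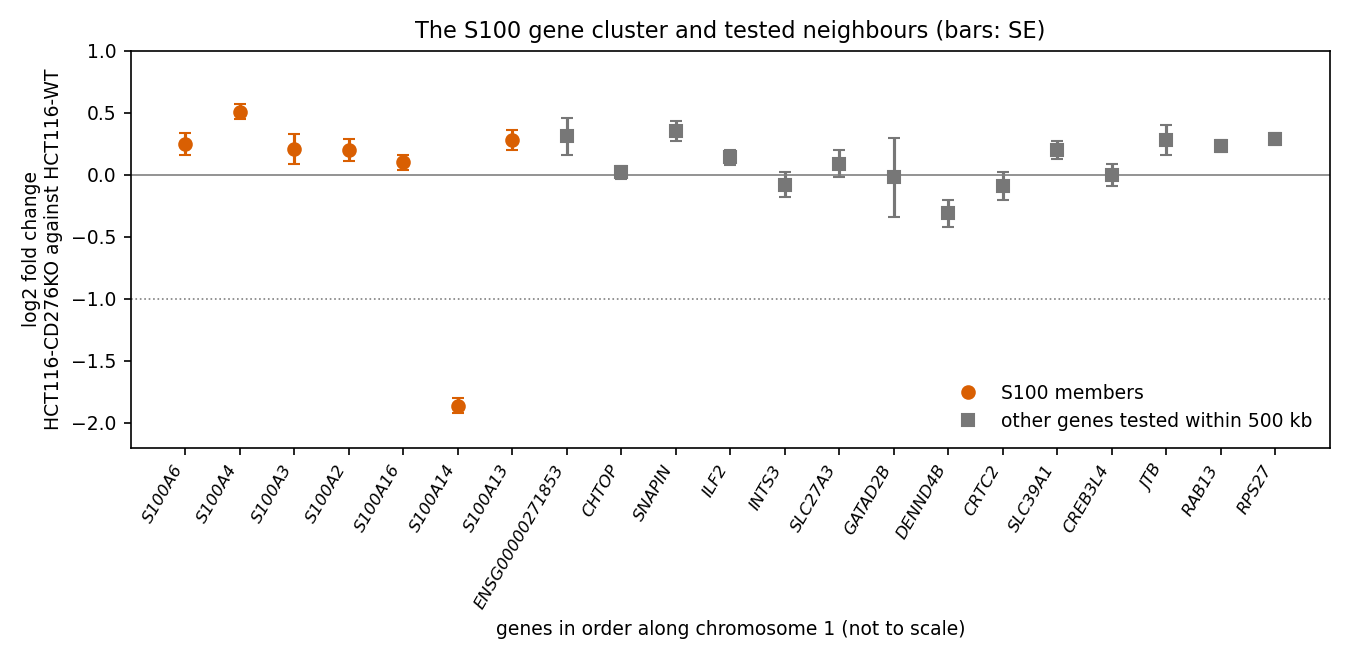
Log2 fold change of HCT116-CD276KO against HCT116-WT cells, with bars for the standard error, for the 7 S100 genes of the chromosome 1 cluster (orange circles) and the 14 other genes tested within 500 kb (grey squares), in their order on the chromosome and not to scale, with S100 genes outside the 9 not drawn. S100A14 lies at -1.86 between S100A16 at 0.10 and S100A13 at 0.28, and the 14 grey points lie between -0.31 and 0.35.

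Around S100A11 6 other genes within 500 kb were tested, with log2 fold changes between -0.42 and 0.03, and around S100P 13, between -0.40 and 0.10. By limma 0 of them were called, against 4.09% of all genes called lower and 0.781% called higher. An unadjusted p-value under 0.05 was found for 1 and 4 of them, and for 21.9% of all genes. SNX27 had the largest difference beside S100A11, from 17.1 ± 2.43 to 12.9 ± 3.61 TPM (SD, n = 5, adjusted p-value 0.187). THEM4, the nearest tested gene below it, was at 14 ± 0.811 and 14.2 ± 0.53 TPM (SD, n = 5). TBC1D14 had the smallest adjusted p-value beside S100P, 0.0595 from limma, with a log2 fold change of -0.28, and passed the threshold without HCT116-CD276KO replicate 1 or 5, at adjusted p-values of 0.0487 and 0.0419. Its adjusted p-value was otherwise above the threshold in every alternative run.

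Of 10 further family members, S100A1, S100A5, S100A7, S100A7A, S100A8, S100A9, S100A12, S100B, S100G and S100Z, only S100A1 and S100A5 exceeded 1 TPM in any library. S100A5 ranged from 0.76 to 2.87 TPM in HCT116-WT libraries and from 2.02 to 2.79 TPM in HCT116-CD276KO libraries, and was not called (log2 fold change 0.26, adjusted p-value 0.423 from limma). S100A1 ranged from 0.12 to 1.65 TPM and from 0.49 to 2.40 TPM. S100A8 and S100A9, which form the calprotectin of neutrophils and monocytes, did not exceed 0.07 TPM in any library.

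The genes of known S100 partners were also examined. These are the receptors AGER, TLR4 and BSG, the cytoskeletal and scaffold proteins EZR, IQGAP1, MYH9 and PPFIBP1, the S100A6 partners CACYBP, SUGT1 and ANXA11, the S100A11 partner ANXA1, FGF1 and SYT1, which are exported or held in complexes with S100A13, and the phosphatase PPP5C. Of the 14 genes 12 were tested, and TLR4, listed at 0, and FGF1, at 0.18 and 0.146 TPM on average, were not. All 12 had log2 fold changes below 0, from -0.59 to -0.06 with a median of -0.21, against a median of -0.09 over all genes, of which 68.1% were below 0. An unadjusted p-value under 0.05 was found for 6 of the 12 and for 21.9% of all genes. ANXA1 was the 1 gene called at an adjusted p-value under 0.05, where 4.09% of all genes were called lower and 0.781% higher. It encodes annexin A1, a calcium-dependent membrane-binding protein, and fell from 499 ± 35.8 to 345 ± 17.5 TPM (SD, n = 5), or -0.53 on the log2 scale (standard error 0.06, limma adjusted p-value 0.000475), without overlap between the groups. The corresponding value of its partner S100A11 was -0.49.

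EZR, which links membrane proteins to actin, was the most abundant partner at 1517 ± 121 and 1287 ± 156 TPM (SD, n = 5, log2 fold change -0.24, adjusted p-value 0.138 from limma). MYH9, the myosin bound by S100A4, was at 239 ± 24.6 and 176 ± 54 TPM (SD, n = 5, adjusted p-value 0.149), and CACYBP, the calcyclin-binding protein, at 284 ± 12 and 267 ± 19.5 TPM (SD, n = 5, adjusted p-value 0.365). AGER, the receptor RAGE for several released S100 proteins, stood at 2.86 ± 0.546 and 2.44 ± 0.4 TPM (SD, n = 5, adjusted p-value 0.434). With the length and GC trends removed ANXA1 was called at a log2 fold change of -0.53, BSG at -0.15 and SYT1 at -0.44. In that fit 5.62% of all genes were called lower. SUGT1 and ANXA11 turned to values above 0 there, at 0.06 and 0.15. MYH9 was at -0.28 there against -0.49 as deposited, EZR at -0.14 against -0.24 and CACYBP at -0.02 against -0.10. AGER stayed at -0.16, and the median over all genes moved from -0.09 to 0.00. The part of transcript length in the partner values was not tested. With median-of-ratios scaling CACYBP and ANXA11 were at 0.00 and 0.04.

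The S100 genes were also compared with each other between cultures of 1 group. Over the 10 libraries, with the group means removed, the Pearson correlations of log2(TPM + 1) between the 8 genes were positive in all 28 pairs, from 0.12 to 0.89. The highest were those of S100A4 with S100A13 and of S100A11 with S100A16. S100A14 had the lowest of all, 0.12 with S100A13, and its 7 correlations did not exceed 0.56. The points share their libraries, and with them the trends with transcript length described above. All 8 genes have transcripts shorter than the median of the genes tested. The share of positive pairs among other short genes was not examined, so this is not read as a trait of the family. Among all genes tested, those most like S100A14 by the same measure were TGFB1I1 at 0.96 and RARA-AS1 and SMG1P5 at 0.92, and those most like S100A4 were IER3, SNHG5 and TRAPPC4 at 0.96, with 7 and 39 genes above 0.9 for S100A14 and S100A4. The genes named were picked as the highest over all genes tested, and how many genes chance would bring above 0.9 was not tested. These genes did not share the differences between the groups: their log2 fold changes were 0.18, -0.05 and -0.16 beside -1.86 for S100A14, and 0.09, 0.21 and 0.07 beside 0.51 for S100A4.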

How the data were processed

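RNA of 5 HCT116-WT and 5 HCT116-CD276KO cultures was analysed. The authors prepared strand-specific libraries of polyadenylated RNA, mapped single reads to GRCh38 with STAR 2.5.2b and quantified Ensembl genes with RSEM 1.3.0 and featureCounts 1.5.1. They deposited TPM values with 2 decimals, and which program gave them is not given in the sources used here. Their own limma/voom test used counts, which were not analysed here. Each library sums to between 999999 and 1000000 TPM, so depth is unknown from these values, no counting interval is given, and precision comes from the 5 cultures.

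All genes averaging 1 TPM or more were compared on log2(TPM + 1) in limma 3.58.1 (R 4.3.3), with empirical Bayes moderation, a mean-variance trend and p-values adjusted by Benjamini-Hochberg over the whole table. This scale understates changes at low TPM. The fit was tested on simulated data in which each gene was drawn on its own, without the length trends of these libraries. How the fit behaves under such trends was not tested. Positions, transcript lengths and GC content came from GENCODE 44 and promoters from RefSeq. All 9 genes were matched by Ensembl identifier.

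The S100 genes, partners, markers, motifs and alternatives were chosen with earlier results of these data known. Every S100 gene of the set was named, with CD276, the called and most abundant partners, other S100 genes above 1 TPM, up to 4 neighbours per locus by adjusted p-value and the nearest tested ones, and 3 genes of like pattern for the 2 largest changes. MYH9, CACYBP, AGER, BSG, SYT1, SUGT1 and ANXA11 were named after their values were seen. One further S100 gene and 1 partner gene are not reported here.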

Additional observations from a re-analysis of the deposited data

Results flagged for a closer look

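In 76 groups of 5 values, over 38 genes named or examined, the gap between the highest or lowest value and its nearest neighbour was taken as a share of the group's range. In 4 groups this share was above 0.71, a limit that chance passes in about 1 of 20 groups. Over 76 groups such a number is near what chance alone would give, so the 4 values are listed as a description. All of them lie in HCT116-WT replicate 3 or HCT116-CD276KO replicate 2, and groups that share a library are not independent. S100A11 in HCT116-CD276KO replicate 2 reached 168.27 TPM, while its group otherwise ranged from 152.21 to 156.38 TPM, and the share was 0.74. Without this library, whose deviations had a Spearman correlation with transcript length of -0.52, the log2 fold change of S100A11 was -0.51, against -0.49 with it. BSG in HCT116-WT replicate 3 reached 786.05 TPM, while its group otherwise ranged from 630.84 to 656.19 TPM, a share of 0.837. MRPL9, within 500 kb of S100A11, reached 86.09 TPM in HCT116-WT replicate 3 against 77.60 to 79.31 TPM otherwise (share 0.799), and 83.24 TPM in HCT116-CD276KO replicate 2 against 73.07 to 75.35 TPM otherwise (share 0.776). The part of length trends in these gaps was not tested.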

How the results depend on the processing

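Results were recomputed with a pseudocount of 0.1, with every gene above 0 TPM in any library, with a mean of 5 TPM or more, median-of-ratios scaling, quantile normalization, a robust variance model, the replicate block, removal of each library's length and GC trend, each library left out in turn, a fold threshold of 1.5 and the log2 ratio of mean TPM. None of the 8 S100 genes changed direction under any of them, with S100A3 left out by the minimum of 5 TPM. S100A14, S100A11 and S100A4 kept their calls in all 18 alternatives with a test, and the log2 fold changes ranged from -1.89 to -1.77, from -0.55 to -0.39 and from 0.44 to 0.61. The number of S100 genes called was 3 as described and under every alternative but these. It was 5 with length and GC trends removed, where 5.62% of all genes were called lower and 3.93% higher. It was 4 once HCT116-WT replicate 3 was left out, where these shares were 3.98% and 0.906%.

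The samples of the same replicate number did not deviate together over all genes (Pearson correlations of 0.09, -0.18, 0.04, -0.03 and 0.12). Each library's trend with transcript length is part of these deviations. The labels do not say what the numbers stand for, so whether these samples were paired is unknown. With the replicate block 3 S100 genes were called, 378 of all genes against 662 without it, and 0 neighbouring genes against 3.

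The number of all genes called was 1287 with length and GC trends removed and between 343 and 857 with 1 library left out: 345, 376, 421 and 343 without HCT116-WT replicates 1, 2, 4 and 5, and 407 and 375 without HCT116-CD276KO replicates 3 and 4. The number also past 2-fold was 66, and 112 with a pseudocount of 0.1, 40 at a mean of 5 TPM and 238 at 1.5-fold. Over all genes the median log2 fold change moved from -0.09 to 0.00 with median-of-ratios scaling and to 0.01 with quantile normalization, where 191 and 253 of the called genes were higher against 106 as deposited. The partners called were 1, and 3 after the length and GC correction. The neighbouring genes called were 3, and 5 after that correction, and between 1 and 4 with 1 library left out. They were 1 without HCT116-WT replicate 1, 2 or 5 and without HCT116-CD276KO replicate 4. The cause of these shifts was not tested. Values near 0 that changed sign were CACYBP (0.00 with median-of-ratios scaling), ANXA11 (0.04 with that scaling and 0.15 with the correction), SUGT1 (0.06 with the correction), MRPL9 (0.03 and 0.01 with median-of-ratios scaling and quantile normalization), THEM4 (0.00 without HCT116-WT replicate 5, from 0.00 to 0.05 with 1 library left out), CHTOP (0.00 without HCT116-WT replicate 2, from 0.00 to 0.04) and MRFAP1L1 (-0.02 without HCT116-WT replicate 3, from -0.02 to 0.04).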
